A study of Mus musculus with 22 samples.

Results

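Microglia, the resident macrophages of the brain, respond to lipopolysaccharide (LPS), a component of the outer membrane of Gram-negative bacteria. The comparison described here asked how the mRNA of LPS-treated mouse microglia differed when CLA was given together with LPS. It used 9 of the 22 RNA libraries of the series, 3 with LPS alone (LPS) and 6 with LPS and CLA (LPS+CLA), chosen by their titles and not by their values. Primary microglia had been shaken off mixed glial cultures from the cortex of newborn C57BL/6 mice. Both groups had LPS at 100 ng/ml for 24 h, and LPS+CLA also had CLA at 50 nM. The labels do not spell out CLA. Every library had LPS, so these values do not show how far either group lay from resting cells. A further 5 libraries with LPS and bafilomycin A1 at 10 nM (LPS+Baf A1), an inhibitor of the vacuolar proton pump, served as the other treated group in 1 contrast. The other 8 libraries, 5 with an siRNA against Atg5 and 3 of its comparator, entered the filter on low values, which asked for 1 FPKM in 3 of all 22 libraries, and the estimate of spread. Whether the libraries of a group are separate cultures is not in the labels. The spread that the p-values rest on is that between these libraries and may be technical.

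As background, LPS is sensed by the receptor TLR4 with its partner CD14. One arm of the signal acts through NF-kB on cytokine genes. The other arm acts through IRF3 on type I interferon, which is released, binds its receptor and switches on a broad set of antiviral genes through STAT2 and IRF9. Macrophages activated in this way also shift toward glycolysis, make nitric oxide with the enzyme encoded by Nos2, and rebuild their lipid metabolism under nuclear receptors such as PPAR and LXR.

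Values are FPKM, fragments scaled to gene length and to the mapped fragments of the library, and were analysed as log2(FPKM + 1). Differences are LPS+CLA minus LPS on that scale with the standard error (SE), and understate the change of genes with low values. Group values are mean ± SD over 3 LPS and 6 LPS+CLA libraries. A gene was called at a Benjamini-Hochberg adjusted p under 0.05 from limma over 11070 genes, and adjusted p-values are from that fit or, where a setting is named, its repeat under that setting. The sums of FPKM per library were 469750, 474168 and 506565 in LPS and 508534 to 517064 in LPS+CLA, so every LPS+CLA sum lay above every LPS sum. The main fit applied no further scaling, and the depth in reads is unknown. LPS+CLA replicate 2 lay apart: the SD over genes of its log2 difference to the other LPS+CLA libraries was 0.267 to 0.273, against 0.139 to 0.151 between the others. LPS replicate 3 was 0.273 to 0.284 from its mates, against 0.158 between these. Counts of called genes and some list and gene results are therefore also given without LPS+CLA replicate 2. Other values are from all libraries, and the flagged levels of replicate 2 are given near the end. Homeostatic microglia markers summed to 4776 to 5015 FPKM in LPS and 5311 to 5825 FPKM in LPS+CLA, against 33.9 to 73.05 FPKM for astrocyte and 1.62 to 20.94 FPKM for neuron markers over all 9. Border macrophage and monocyte markers were less far below, at 848.4 to 1237 FPKM. Of the 28 homeostatic markers, 6 stayed under 1 FPKM in all 9 libraries.

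CLA together with LPS changed the mRNA level of most genes that passed the filter on low values. In all, 6981 of 11070 genes were called, 63.1%, and 7236 of 15534, 46.6%, without that filter. Of the 6981, 4476 were higher (40.4%) and 2505 lower (22.6%) in LPS+CLA. Without LPS+CLA replicate 2, 7130 of 11067 genes were called, 64.4%, with 4703 higher and 2427 lower. The libraries of the 2 groups did not overlap in 5717 genes, 51.6%. Called changes of 2-fold or more were fewer, 330 rises and 357 falls, and 378 and 353 without that library. They were 235 and 483 after median-of-ratios scaling, 235 and 414 after quantile normalization, and 597 and 661 with a pseudocount of 0.1. The balance of rises and falls depended on scaling: rises were 64.1% of calls, but 48.4% after median-of-ratios scaling (3312 rises and 3527 falls) and 54% after quantile normalization. The median difference of all genes was 0.0898, and -0.0183 and 0.0204 under these scalings. Gene lists are therefore described by their median minus that of all genes, and the shares above are what any count of list members has to be read against. Leaving out LPS+CLA replicate 2 changed no list's count of rises or falls by more than 3. It turned the sign of the median minus that of all genes in 2 lists, CXC chemokines and eicosanoid genes, both near 0.

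**Figure D1:**
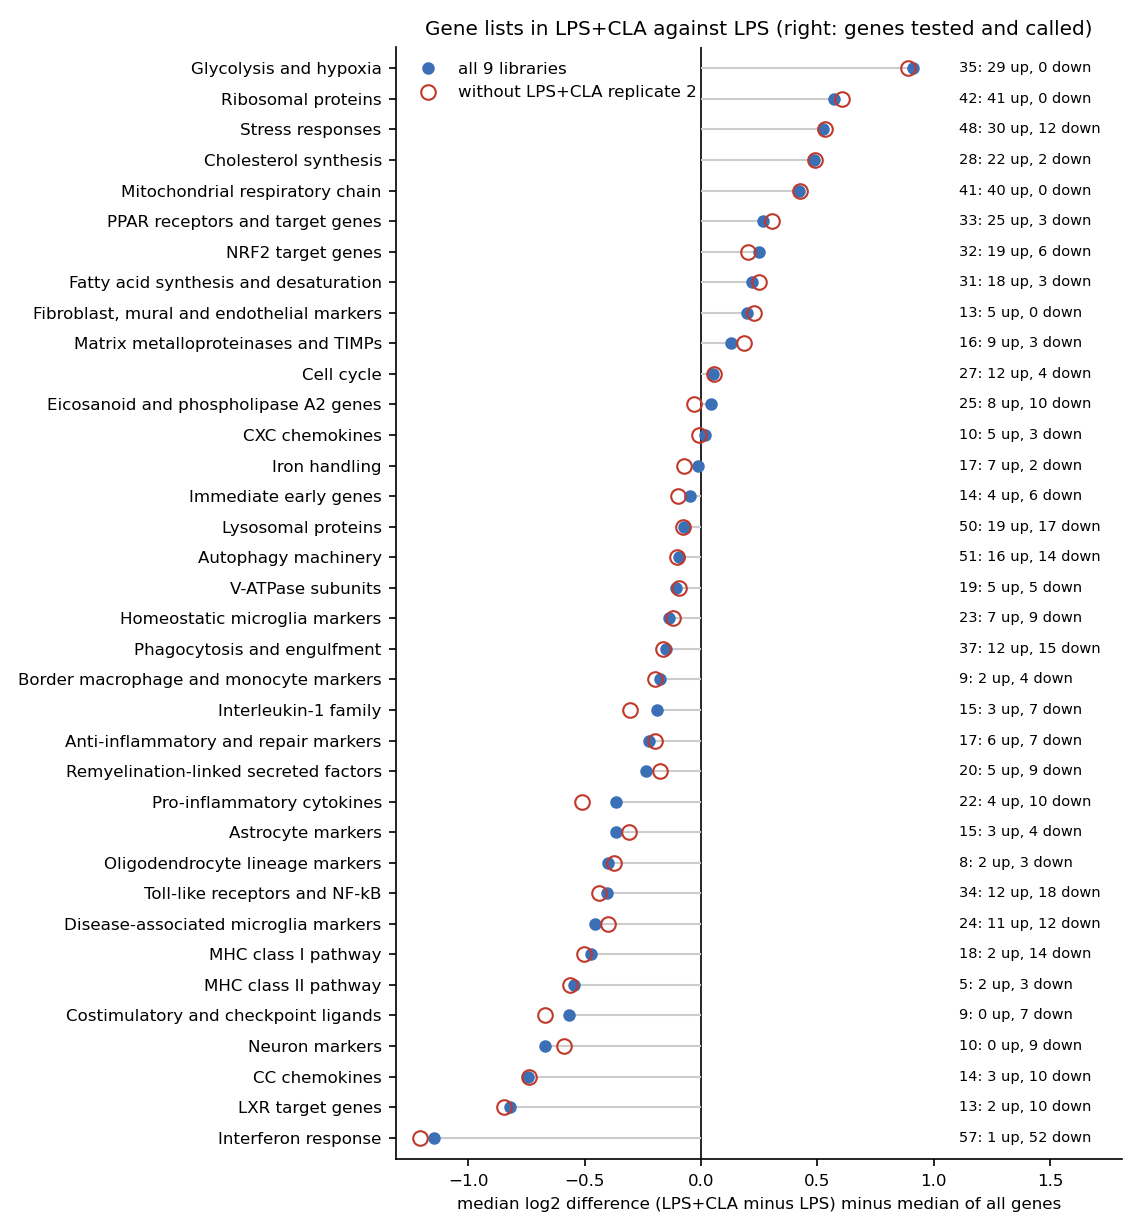
Median log2 difference (LPS+CLA minus LPS) of each gene list minus the median of all genes tested, from all 9 libraries (filled) and without LPS+CLA replicate 2 (open), with the tested members, rises and falls of each list at the right. Interferon response genes lie farthest below 0 and glycolysis and hypoxia genes farthest above it, with both sets of libraries.

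The interferon response was the group with the most uniform fall. Of 57 tested genes 52 were called lower, 1 was called higher and 4 were not called, and the list median minus that of all genes was -1.15. Without LPS+CLA replicate 2 the counts were 52 and 2 and the value was -1.21. The groups' libraries did not overlap in any of the 52. By role, 11 of 11 interferon-inducible GTPases fell, which attack the vacuoles of intracellular pathogens (median minus all genes -1.62). Of 31 antiviral effectors 29 fell (-1.05), and of 15 sensors and regulators 12 fell (-0.55).

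Several of these genes are switched on through a sequence element near their start that binds the interferon-activated factor. As an approximation, the letters GAAANNGAAA were searched on both strands, overlaps allowed, in windows of 300 bases (250 before and 50 after the start) from RefSeq on GRCm38.p6, where windows were given for 49 of the 57 genes. At least 1 match was found for 27 of the 49 (55.1%), against 370 of 8990 tested genes with a window (4.12%) and 1131 of all 32851 windows (3.44%). Among inducible GTPases it was 9 of 10. The 27 genes with a match had a median difference of -1.19, and the 22 without one -1.02, given without a test. A match is a description of these letters only. The 100 bases around the match are printed for the 5 genes with the highest LPS level among those with a match before the start, 5′ to 3′ on the gene's strand, with the matched letters in capitals. TTTC marks the element read on the other strand.
Rsad2 (chr12:26456518-26456617, minus strand): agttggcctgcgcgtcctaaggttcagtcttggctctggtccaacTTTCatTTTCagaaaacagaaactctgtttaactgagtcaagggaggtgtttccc
Ifit3 (chr19:34583345-34583444, plus strand): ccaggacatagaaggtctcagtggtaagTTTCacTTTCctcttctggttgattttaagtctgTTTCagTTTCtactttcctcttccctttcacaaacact
Bst2 (chr8:71537545-71537644, minus strand): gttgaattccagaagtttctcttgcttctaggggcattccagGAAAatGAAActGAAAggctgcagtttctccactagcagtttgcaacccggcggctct
Isg15 (chr4:156200836-156200935, minus strand): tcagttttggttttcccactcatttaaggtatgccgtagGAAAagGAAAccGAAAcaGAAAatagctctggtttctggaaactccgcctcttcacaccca
Ifit1 (chr19:34640749-34640848, plus strand): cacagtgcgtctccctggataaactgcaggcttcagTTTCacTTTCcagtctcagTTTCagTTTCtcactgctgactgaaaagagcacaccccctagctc

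Rsad2, which encodes the antiviral enzyme viperin, has 1 such match, 120 bases before its start. Rsad2 was at 1499.8, 1426 and 1452 FPKM in the 3 LPS libraries and at 122 to 154 FPKM (median 126) over the 6 LPS+CLA libraries. No LPS+CLA library came near the LPS level, and the difference was -3.48 ± 0.093 (SE; adjusted p = 3.6e-18). Cmpk2, its neighbour on chromosome 12, encodes a mitochondrial nucleotide kinase and had no match in its window. It fell in the same way, from 861, 841 and 973 FPKM to 96.3 to 112 FPKM (median 98.6), a difference of -3.12 ± 0.090. Ifit2, a binder of viral RNA on chromosome 19, was at 966, 905 and 889.8 FPKM in LPS and at 94.1 to 118 FPKM (median 98.7) in LPS+CLA (-3.18 ± 0.084). Its relatives Ifit3 and Ifit1, each with 2 matches printed above, went from 1264 ± 88.0 to 393 ± 15.0 FPKM and from 624.7 ± 40.2 to 183 ± 17.1 FPKM (differences -1.68 and -1.77). Of the 50-base stretches of Ifit3, 51.2% recur in another annotated gene, so its level is uncertain. Iigp1, an inducible GTPase, was at 186, 175 and 207 FPKM and at 12.4 to 15.6 FPKM (median 12.7), the largest fall of the list at -3.74 ± 0.092.

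Not every interferon target with the element fell. Bst2, which tethers budding virus to the cell surface, carries 2 overlapping matches and was the gene of the list called higher, with 875, 977 and 1090.2 FPKM in LPS and 1025 to 1269 FPKM (median 1175) in LPS+CLA. These ranges overlapped, and the difference of 0.26 (adjusted p = 0.0011) was no longer called after median-of-ratios scaling (0.11, adjusted p = 0.16). Ifitm3, which blocks virus entry and has a match in its window, was at 2044 ± 291 FPKM in LPS and 2037 ± 142 FPKM in LPS+CLA and was not called (adjusted p = 0.99), but was called as lower after quantile normalization (-0.13, adjusted p = 0.044). The receptor gene Ifnar2 was not called either, at 96.8 ± 4.0 FPKM in LPS and 95.4 ± 3.9 FPKM in LPS+CLA. Isg15, a ubiquitin-like protein with 3 overlapping matches, fell by less than the Ifit genes, from 972 ± 41.7 to 558 ± 21.9 FPKM (-0.80 ± 0.062). Oas2, a sensor of double-stranded RNA, fell from 108 ± 5.0 to 31 ± 1.4 FPKM (-1.77 ± 0.044) (adjusted p = 3.0e-18).

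**Figure D2:**
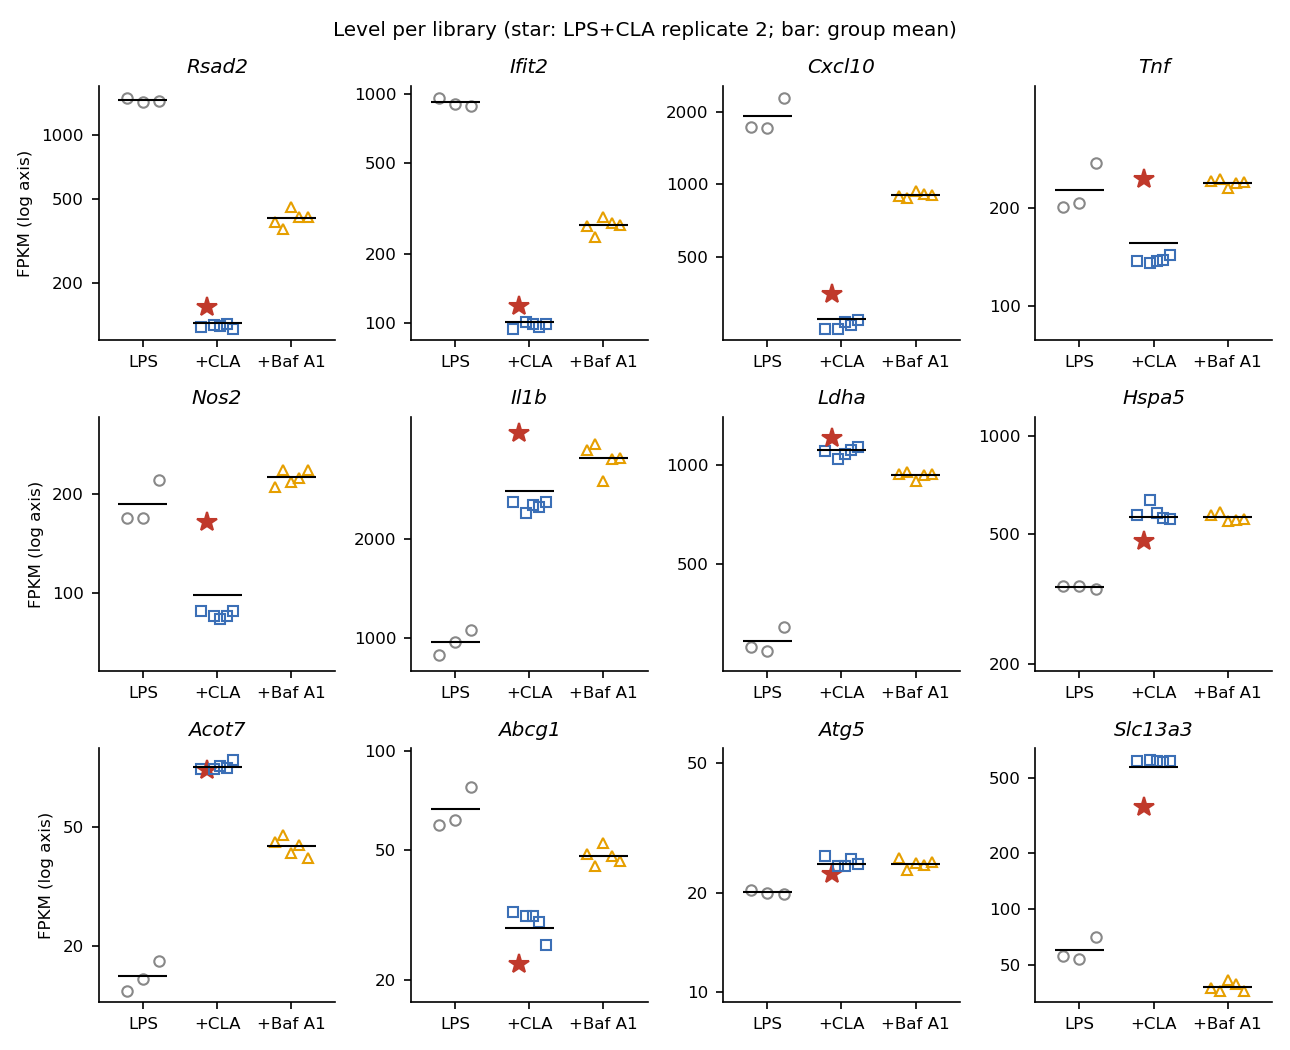
FPKM (log axis) of 12 genes in each LPS (circle), LPS+CLA (square) and LPS+Baf A1 (triangle) library, with LPS+CLA replicate 2 as a filled star and group means as bars. Rsad2, Ifit2 and Cxcl10 show no overlap between LPS and LPS+CLA, while in Tnf and Nos2 the star lies nearer to LPS than the other LPS+CLA libraries.

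Cytokine genes moved in different directions. Tnf, the gene of tumour necrosis factor, was at 202, 207 and 274 FPKM in LPS and at 136 to 246 FPKM (median 138) in LPS+CLA. The highest LPS+CLA value, 246 FPKM, came from replicate 2 and lay inside the LPS range, and the other 5 lay at 136 to 144 FPKM, all below it. The difference was -0.56 ± 0.14 (adjusted p = 0.0011), and -0.69 (adjusted p = 3.1e-08) without replicate 2. Nos2 was at 169.6, 169 and 222 FPKM in LPS and at 83.4 to 87.9 FPKM in 5 LPS+CLA libraries. Replicate 2 was again the highest of its group, at 164 FPKM, but unlike for Tnf it lay below every LPS library. It was called at -0.95 ± 0.16 with all libraries and at -1.10 without that one. Il1b, the gene of interleukin-1 beta, rose instead: it was at 884, 970.4 and 1059.6 FPKM in LPS and 2412 to 4229.7 FPKM (median 2575) in LPS+CLA (1.51 ± 0.15, adjusted p = 9.2e-09). Its highest value, 4229.7 FPKM, was again replicate 2, against 2412 to 2605 FPKM in the others.

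An exact two-sided permutation test over the 84 assignments of 9 libraries to groups of 6 and 3 was run on 8 single genes. This exact permutation test gave p = 0.0119, the smallest it can give, for Il1b, Nos2, Arg1, Atg5 and Fads2 (adjusted over the 8 p = 0.019). It gave exact p = 0.0357 for Tnf (adjusted 0.0476), 0.0476 for Pparg (adjusted 0.0544) and 0.786 for Fads1.

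Genes of the inflammasome, which processes interleukin-1 beta, mostly moved against the cytokine gene. Of 7 tested 6 fell and 1 rose (median minus all genes -0.61). Casp4, the cytosolic LPS sensor known as caspase-11 in mice, fell from 170.1 ± 12.9 to 61.8 ± 4.6 FPKM (-1.45), Nlrp3 from 93.6 ± 13.2 to 46.7 ± 11.0 FPKM (-1.0) and Casp1, which cleaves the cytokine precursor, from 202 ± 24.6 to 107 ± 5.0 FPKM (-0.90). The rise was in the adaptor gene Pycard, from 16.8 ± 4.2 to 28.9 ± 3.6 FPKM (0.76). Il18bp, which neutralises interleukin-18, fell from 60.4 ± 8.7 to 22.4 ± 3.8 FPKM (-1.40). Il1rn, the receptor antagonist, was at 725 ± 126 FPKM in LPS and 815 ± 102 FPKM in LPS+CLA and was not called (adjusted p = 0.12). Il1a was not called at 0.41 (adjusted p = 0.097), although its 6 LPS+CLA libraries, at 189 to 204 FPKM (median 194), did not overlap the LPS values of 129, 159.8 and 153 FPKM. The fit takes its spread from all 22 libraries in 5 groups and not from these 9 alone, so the missing call does not show a lack of difference.

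Of 22 pro-inflammatory cytokine and effector genes, 10 fell and 4 rose, and 12 fell without LPS+CLA replicate 2. With all libraries 63.6% of them were called, near the 63.1% of all genes. All 4 tested genes of the TNF family fell, of which Tnfsf10, the death ligand TRAIL, fell most, from 27.4 ± 4.0 to 2.96 ± 0.50 FPKM (-2.84 ± 0.10). Tnfsf15 went from 4.59 ± 0.17 to 0.933 ± 0.18 FPKM (-1.54), the growth factor gene Csf1 from 8.01 ± 0.87 to 2.3 ± 0.37 FPKM (-1.45) and Il15 from 64.5 ± 8.3 to 30.8 ± 1.6 FPKM (-1.04). Among the rises, Ebi3, a subunit of interleukin-27 and interleukin-35, went from 169 ± 18.7 to 237 ± 18.2 FPKM (0.49). Lcn2, a protein that withholds iron from bacteria, was not called with all libraries (-0.33, adjusted p = 0.076). Without LPS+CLA replicate 2, at 1849 FPKM, it was called as lower (-0.48, adjusted p = 5.0e-05). The prostaglandin synthase gene Ptgs2 was not called in either case (0.15 and -0.013).

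Genes of dampening and repair were also divided, with 6 rises and 7 falls among 17 (76.5% called, against 63.1% of all genes). Il10, the cytokine that restrains macrophages, rose from 5.71, 5.98 and 11.2 FPKM in LPS to 18.1 to 25.8 FPKM (median 24.9) in LPS+CLA with no overlap (1.57 ± 0.15, adjusted p = 1.0e-08). Arg1, which competes with Nos2 for arginine, was at 5.4, 5.7 and 9.76 FPKM and at 16.8 to 27.7 FPKM (median 26.8) (1.74 ± 0.47, adjusted p = 0.0028). Il4ra, the receptor subunit for interleukin-4 and interleukin-13, rose from 95.5 ± 6.1 to 131 ± 13.9 FPKM (0.45) and the scavenger receptor gene Cd36 from 201 ± 1.6 to 356 ± 73.2 FPKM (0.79). In LPS+CLA replicate 2 both lay close to LPS. Il4ra was at 102.9 FPKM there, against 89.2 to 101.5 FPKM in LPS and 134 to 139 FPKM in the other LPS+CLA libraries. Cd36 was at 209 FPKM there, against 200 to 203 FPKM and 368 to 409 FPKM. Lower were the growth factor gene Igf1, from 42.4 ± 4.5 to 22.4 ± 2.8 FPKM (-0.90), and the mannose receptor gene Mrc1, from 12.4 ± 3.2 to 4.86 ± 1.4 FPKM (-1.21).

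Chemokine genes moved in both directions. Of 10 tested CXC chemokine genes 5 rose and 3 fell. Cxcl10, an interferon-induced attractant of T cells, was at 1735, 1713 and 2289 FPKM in LPS and at 250.2 to 348 FPKM (median 263) in LPS+CLA (-2.79 ± 0.10), a fall that no library contradicted. Cxcl9, also driven by interferon, fell by 0.50 (adjusted p = 0.0029). Only LPS+CLA replicate 2, at 22.5 FPKM, overlapped the LPS libraries at 18.4 to 25.9 FPKM, and the other 5 lay at 12.6 to 13.8 FPKM. Of 4 tested neutrophil attractants 3 rose. Cxcl1 went from 9.74 ± 0.35 to 20.4 ± 2.7 FPKM (0.99), although it was not called after median-of-ratios scaling with both LPS replicate 3 and LPS+CLA replicate 2 left out. Cxcl5 was near 0 in LPS, at 0.03, 0.1 and 0 FPKM, and at 0.36 to 1.48 FPKM (median 1.09) in LPS+CLA. Cxcl2 was not called at 206 ± 11.4 FPKM in LPS and 160.5 ± 36.1 FPKM in LPS+CLA (-0.39, adjusted p = 0.14). Cxcl2 was called as lower without replicate 2 (-0.50, adjusted p = 0.048). Of 9 tested CC ligand genes 5 fell and 3 rose. Ccl4, Ccl7 and Ccl2, which draw monocytes and lymphocytes, went from 684 ± 184 to 332 ± 12.9 FPKM, 1433 ± 273 to 718 ± 18.3 FPKM and 909.8 ± 145 to 613 ± 34.8 FPKM (-1.01, -0.98 and -0.56). Ccl6 and Ccl9 rose, from 34.7 ± 4.9 to 124 ± 29.9 FPKM (1.76) and from 156 ± 31.7 to 285 ± 25.4 FPKM (0.89). Ccl5, the most abundant at 7081 ± 1110 FPKM in LPS, was not called (-0.14, adjusted p = 0.12), but was without replicate 2 (-0.18, adjusted p = 0.031). All 5 tested receptor genes of the CC family fell, and among them the atypical receptor gene Ccrl2 went from 109.8 ± 14.2 to 23 ± 4.9 FPKM (-2.22).

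Most genes that present antigen and engage T cells were lower. Of 9 costimulatory and checkpoint ligand genes 7 fell and 0 rose. Cd86, the ligand of CD28, was at 33.4, 33.4 and 41.7 FPKM in LPS and at 7.31 to 8.8 FPKM (median 8.53) in LPS+CLA (-1.98 ± 0.074), without overlap. Cd40 was at 105, 119 and 116 FPKM and at 35.9 to 44.8 FPKM (median 36.9) (-1.55 ± 0.067), and Cd274, the checkpoint ligand PD-L1, went from 318 ± 14.6 to 132 ± 4.4 FPKM (-1.26). Of 18 genes of the MHC class I pathway 14 fell and 2 rose (median minus all genes -0.48). Nlrc5, the transactivator of this pathway, fell from 57.7 ± 1.4 to 23.8 ± 1.2 FPKM (-1.25) and the peptide transporter gene Tap1 from 204 ± 4.8 to 113 ± 3.1 FPKM (-0.85). The 2 rises were small: H2-D1 (0.099, adjusted p = 0.041) was not called without LPS replicate 1 or 2 or LPS+CLA replicate 1, 2, 3 or 6 (adjusted p = 0.07 without the second of these LPS+CLA libraries) and turned to -0.052 after median-of-ratios scaling, and Psme2 (0.25) was not called after that scaling (adjusted p = 0.2). H2 genes are close copies of each other, so their values are uncertain. Of 5 tested class II pathway genes, H2-Ab1 rose from 2.17 ± 0.54 to 5.48 ± 0.26 FPKM (1.04) and H2-DMb1 from 3.47 ± 0.30 to 4.5 ± 0.80 FPKM (0.29), the second not called after either scaling or without LPS replicate 1. Ctss, Cd74 and H2-DMa fell (-0.46, -0.86 and -0.69). For Cd74, LPS+CLA replicate 2 at 30.7 FPKM lay inside the LPS range of 30.2 to 43.7 FPKM, and the other 5 lay at 16 to 18 FPKM.

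Genes of LPS sensing and NF-kB signalling moved in both directions. Of 16 receptor and adaptor genes 5 rose and 9 fell. Tlr4 fell from 30.1 ± 4.7 to 18 ± 1.0 FPKM (-0.70) while the gene of its partner Cd14 rose from 464 ± 53.2 to 781 ± 94.2 FPKM (0.75). Tlr1, which pairs with TLR2 to sense lipoproteins, rose from 93.6 ± 5.2 to 152 ± 4.5 FPKM (0.70), and Tlr13, a sensor of bacterial ribosomal RNA, fell from 46.8 ± 1.7 to 13.1 ± 2.3 FPKM (-1.78). All 5 NF-kB subunit genes fell (median minus all genes -0.52). Of 13 feedback inhibitors 7 rose and 4 fell: Tnip3 and Bcl3 rose (0.81 and 0.50), Nfkbie and Tnfaip3 fell (-1.46 and -1.26), and Nfkbia, the classical early inhibitor, was at 224 ± 16.9 FPKM in LPS and 225 ± 26.5 FPKM in LPS+CLA and was not called (adjusted p = 0.95).

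Glycolysis and hypoxia genes rose together. Of 35 tested, 29 were called higher and 0 lower, and the median lay 0.909 above that of all genes (0.89 without LPS+CLA replicate 2). Ldha, which makes lactate, was at 278, 271 and 319.8 FPKM in LPS and at 1046 to 1212 FPKM (median 1112) in LPS+CLA, with no overlap (1.95 ± 0.075, adjusted p = 1.2e-15). Tpi1 and Pgam1, which encode glycolytic enzymes, went from 183 ± 25.8 to 675 ± 29.1 FPKM (1.88) and from 188 ± 24.4 to 546 ± 28.9 FPKM (1.54). Pgk1 was at 269, 280.1 and 327 FPKM and at 749 to 772 FPKM (median 755) (1.38 ± 0.069). Shares of 50-base stretches that recur in other annotated genes were 53.9% for Pgk1 and 36.2% for Pgam1, so these levels are uncertain too. Hk3, a hexokinase of myeloid cells, and Pfkfb4 were not called (0.041 and 0.12). The letters ACGTG, the core to which the hypoxia factor HIF binds, were found on either strand in the windows of 23 of 33 list genes (69.7%), against 2665 of 8990 tested genes (29.6%) and 6447 of 32851 windows (19.6%). The 23 had a median difference of 0.899 and the 10 without a match 1.20, also without a test. The stretch of Pgk1, which has 2 matches, is printed with the letters in capitals (CACGT on the other strand).
Pgk1 (chrX:106186912-106187011, plus strand): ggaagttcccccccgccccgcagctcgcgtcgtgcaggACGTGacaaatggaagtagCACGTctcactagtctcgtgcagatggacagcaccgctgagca

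Nuclear genes of the respiratory chain and of the cytosolic ribosome were higher as well. Of 41 respiratory chain and ATP synthase genes 40 rose and 0 fell (median minus all genes 0.422), and of 42 ribosomal protein genes 41 rose and 0 fell (0.571). After median-of-ratios scaling 35 and 40 were still called higher and 0 lower. Ndufa4 went from 40.0 ± 3.8 to 86.6 ± 7.0 FPKM (1.09) and the ATP synthase subunit gene Atp5b from 303 ± 8.1 to 449.7 ± 12.9 FPKM (0.57). Ndufs7, of complex I, was the one respiratory gene not called (0.17, adjusted p = 0.069). Rpsa and Rps2, of the small ribosomal subunit, went from 158 ± 12.2 to 349 ± 27.3 FPKM (1.13) and from 293 ± 24.0 to 589.6 ± 35.1 FPKM (1.01), and Rps24 was not called (0.12). Ribosomal protein genes have many processed copies in the genome, so single values are uncertain. Myc, a factor that drives ribosome production, was at 1.22, 1.07 and 1.27 FPKM in LPS and at 6.7 to 11.1 FPKM (median 9.64) in LPS+CLA (2.25 ± 0.12), without overlap. The 9 mitochondrially encoded genes listed have no line in the table.

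The stress genes separated into 2 arms. Of 18 ER folding genes 17 rose and 0 fell (median minus all genes 0.747), and of 12 cytosolic chaperone genes 11 rose and 0 fell (0.624). Of 18 genes of the ATF4 and amino acid response 12 fell and 2 rose (-0.509). Pdia4, a disulfide isomerase of the ER, was at 33, 33.8 and 30.8 FPKM in LPS and at 81.8 to 127 FPKM (median 121) in LPS+CLA (1.78 ± 0.091). Its lowest LPS+CLA value, 81.8 FPKM, was replicate 2 and still lay above every LPS library. Calr, a lectin chaperone, was at 419, 412 and 408 FPKM and at 889.5 to 1132 FPKM (median 1079) (1.35 ± 0.063). Among the ATF4 genes, Ddit3, which encodes CHOP, fell from 153 ± 18.7 to 60.2 ± 4.0 FPKM (-1.33), Trib3 from 18.8 ± 1.3 to 5.16 ± 0.66 FPKM (-1.69) and Slc3a2, a chain of amino acid transporters, from 358 ± 38.3 to 199.8 ± 4.1 FPKM (-0.83).

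The ER arm is known to use an element with the letters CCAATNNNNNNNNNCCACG, which binds ATF6 with NF-Y. It was found on either strand in the windows of 7 of 16 ER folding genes with a window (43.8%), against 14 of 8990 tested genes (0.156%) and 39 of 32851 windows (0.119%). All 7 were called higher, with a median difference of 0.837, and the 9 without a match had 0.778. The 100 bases around the match are given for the 3 with the highest LPS level, the 2 outer blocks in capitals. CGTGG and ATTGG mark the element on the other strand.
Calr (chr8:84847035-84847134, minus strand): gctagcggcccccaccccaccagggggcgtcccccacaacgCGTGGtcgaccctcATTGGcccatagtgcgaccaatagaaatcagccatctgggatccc
Hspa5 (chr2:34771984-34772083, plus strand): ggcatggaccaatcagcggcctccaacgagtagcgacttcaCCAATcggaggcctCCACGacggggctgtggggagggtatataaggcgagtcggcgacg
Hsp90b1 (chr10:86705493-86705592, minus strand): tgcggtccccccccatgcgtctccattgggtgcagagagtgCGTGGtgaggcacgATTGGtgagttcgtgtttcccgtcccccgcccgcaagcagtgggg

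Hspa5, the master ER chaperone BiP, went from 345 ± 3.5 to 564 ± 51.9 FPKM (0.70 ± 0.060), and its relative Hsp90b1 from 227 ± 11.3 to 407 ± 25.2 FPKM (0.84 ± 0.061). Both were lower in LPS+CLA replicate 2 than in the other 5 libraries of the group, at 477 FPKM against 556 to 638 FPKM and at 359 FPKM against 409 to 433 FPKM.

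**Figure D3:**
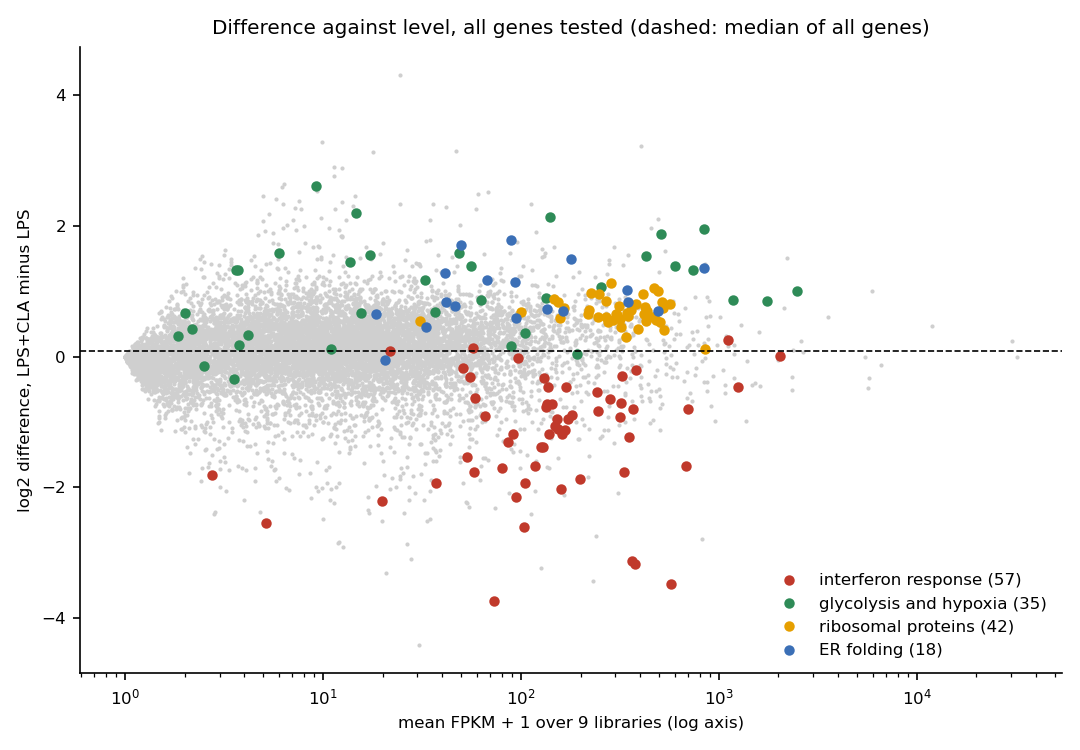
Log2 difference (LPS+CLA minus LPS) of each of the 11070 genes against its mean level in the 9 libraries (mean FPKM + 1, log axis), with interferon response, glycolysis and hypoxia, ribosomal protein and ER folding genes marked. The interferon genes form the lower band and most genes of the other 3 lists lie above the dashed line at the median of all genes.

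NRF2 target genes, which defend against oxidants, rose in 19 and fell in 6 of 32. All 6 tested genes of the pentose phosphate pathway, a source of NADPH, rose, among them Tkt from 40.5 ± 1.3 to 82.9 ± 5.6 FPKM (1.01). Cat, catalase, rose from 23 ± 0.93 to 43.6 ± 2.0 FPKM (0.89) and Gsr, which renews glutathione, from 76.3 ± 2.5 to 145 ± 14.3 FPKM (0.92). Nfe2l2, the gene of NRF2 itself, fell from 95.6 ± 3.3 to 58.5 ± 4.2 FPKM (-0.70), and Keap1, its inhibitor, from 32.8 ± 2.7 to 25.3 ± 1.1 FPKM (-0.36). After median-of-ratios scaling 16 NRF2 targets rose and 10 fell. Among 17 iron genes 7 rose and 2 fell, and 5 rose and 5 fell after that scaling. Without scaling 52.9% of the iron genes were called, against 63.1% of all genes. Tfrc, the transferrin receptor, rose from 8.4 ± 1.5 to 21 ± 1.4 FPKM (1.23) and Cp, ceruloplasmin, from 118 ± 2.8 to 243 ± 10.3 FPKM (1.03). The ferritin gene Fth1 was not called (-0.011, adjusted p = 0.87).

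Lipid genes moved by pathway. Of 33 PPAR receptors and targets 25 rose and 3 fell (median minus all genes 0.266). Of these, all 4 peroxisomal and 10 of 12 mitochondrial fatty acid oxidation genes were called higher. Acadvl, the first enzyme of long-chain oxidation, went from 21.8 ± 1.5 to 43.9 ± 2.8 FPKM (0.97) and Hadhb from 19 ± 1.3 to 33.3 ± 2.4 FPKM (0.77). Pparg itself was low, at 1.29, 0.61 and 1.04 FPKM in LPS and 0.58 to 3.24 FPKM (median 2.88) in LPS+CLA. The lowest of these, 0.58 FPKM, was replicate 2, below every LPS library, and the other 5 lay at 2.77 to 3.24 FPKM, above every LPS library. It was called at 0.80 ± 0.24 (adjusted p = 0.0063) and at 1.02 (adjusted p = 7.3e-06) without replicate 2. Fabp3, a fatty acid carrier, was the target that fell most, from 18.2, 22.2 and 29.1 FPKM in LPS to 3.34 to 4.81 FPKM (median 3.96) in LPS+CLA (-2.24 ± 0.13), although 29.2% of its 50-base stretches recur in another gene.

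LXR target genes went the other way, with 10 falls and 2 rises among 13 (median minus all genes -0.82). Abcg1, a cholesterol exporter, was at 59.7, 61.7 and 78.1 FPKM in LPS and at 22.4 to 32.2 FPKM (median 30.8) in LPS+CLA (-1.18 ± 0.12). Pltp, which transfers phospholipid between lipoproteins, fell from 152 ± 19.0 to 70.0 ± 2.6 FPKM (-1.11), and Mylip, a ubiquitin ligase, from 20.8 ± 0.76 to 12.2 ± 0.51 FPKM (-0.73). The rises were Lpcat3 (0.49) and Nr1h3, the gene of LXR alpha (0.30). Of 28 cholesterol synthesis and uptake genes 22 rose and 2 fell (0.485). Fdps and Lss, enzymes of the sterol path, went from 6.83 ± 1.1 to 17.2 ± 2.3 FPKM (1.22) and from 1.92 ± 0.13 to 4.11 ± 0.33 FPKM (0.81). The falls were the lysosomal exporters Npc1 and Npc2 (-0.25 and -0.16).

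The desaturases of the linoleic acid pathway were not called by the limma fit. Fads1 was at 7.81, 7.78 and 5.73 FPKM in LPS and at 4.32 to 8.44 FPKM (median 8.04) in LPS+CLA (0.051 ± 0.15, adjusted p = 0.78), with replicate 2 at 4.32 FPKM below every LPS library. Fads2 was near the limit of the scale, at 0.9, 0.92 and 1.07 FPKM and at 0.27 to 0.74 FPKM (median 0.59). All 6 LPS+CLA values lay under the 3 LPS values, and the exact permutation test gave p = 0.0119 for Fads2. The limma fit, with its spread from all 22 libraries, did not call Fads2 (-0.33 ± 0.28, adjusted p = 0.3). Of 6 tested desaturase genes 1 rose and 0 fell. Genes of acetyl-CoA supply and fatty acid synthesis rose in 12 and fell in 1 of 15. Me1, which supplies NADPH, went from 2.88 ± 0.076 to 11.4 ± 1.2 FPKM (1.67). Acot7, a thioesterase that frees fatty acids from coenzyme A, was at 14.2, 15.5 and 17.9 FPKM and at 77.8 to 84.1 FPKM (median 78.5) (2.26 ± 0.076), and Acsl1, which attaches coenzyme A, fell from 161 ± 17.1 to 73.8 ± 8.8 FPKM (-1.11).

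Phospholipase genes rose in 5 and fell in 2 of 8, and eicosanoid receptors fell in 4 and rose in 1 of 6. Pla2g4a, which releases arachidonic acid, rose from 29.4 ± 1.1 to 46.8 ± 2.9 FPKM (0.65), and Pla2g7, which hydrolyses platelet-activating factor, fell from 316 ± 30.0 to 152 ± 9.5 FPKM (-1.04). Hpgd, which inactivates prostaglandins, rose from 1.4 ± 0.81 to 6.67 ± 0.81 FPKM (1.72). Of the prostaglandin E2 receptors, Ptger4 rose from 5.1 ± 0.76 to 8.91 ± 0.73 FPKM (0.71) and Ptger2 fell from 6.31 ± 0.22 to 2.5 ± 0.17 FPKM (-1.06).

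Autophagy genes were mixed. Of 51 tested, 16 rose and 14 fell (58.8% called, against 63.1% of all genes). After median-of-ratios scaling 10 rose and 30 fell, so the balance of this list depends on scaling. Atg5, needed to conjugate LC3, was at 20.4, 20.1 and 19.8 FPKM in LPS and at 22.9 to 26 FPKM (median 24.4) in LPS+CLA, with every LPS+CLA library above every LPS library (0.28 ± 0.047, adjusted p = 2.2e-05). The difference was 0.13 (adjusted p = 0.034) after median-of-ratios scaling. Bnip3, a mitophagy receptor that is also a hypoxia gene, rose from 20.1 ± 2.8 to 61.8 ± 4.7 FPKM (1.58) and Gabarapl1, an LC3 relative, from 23.5 ± 0.27 to 46 ± 7.5 FPKM (0.92). The cargo receptor gene Sqstm1, encoding p62, fell from 549 ± 57.3 to 283 ± 19.5 FPKM (-0.95), and Rb1cc1, of the initiating kinase complex, from 13.9 ± 1.2 to 8.3 ± 0.70 FPKM (-0.68). Map1lc3b, at 50.0 ± 2.8 FPKM in LPS and 49.2 ± 2.9 FPKM in LPS+CLA, was not called.

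Of 19 V-ATPase subunit genes 5 rose and 5 fell, and of 50 lysosomal genes 19 rose and 17 fell. The shares called were 52.6% and 72%, against 63.1% of all genes. After median-of-ratios scaling the counts were 2 and 11, and 12 and 24. Tcirg1, a subunit of macrophage and osteoclast proton pumps, fell from 230.2 ± 19.2 to 96.6 ± 2.5 FPKM (-1.24) and Atp6ap1, an accessory subunit, rose from 169 ± 4.3 to 232 ± 7.0 FPKM (0.46). Ppt1, which removes fatty acids from proteins, rose from 85.3 ± 4.3 to 144 ± 2.7 FPKM (0.75) and Smpd1, acid sphingomyelinase, from 9.17 ± 0.81 to 16.7 ± 1.6 FPKM (0.80). Gla, alpha-galactosidase, and Cd68, a lysosomal membrane protein of macrophages, fell from 72.8 ± 7.3 to 28.2 ± 3.2 FPKM (-1.34) and from 505 ± 88.1 to 251 ± 16.0 FPKM (-0.996). Lamp1, at 860.4 ± 25.7 FPKM in LPS and 847 ± 21.5 FPKM in LPS+CLA, was not called.

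Identity genes of microglia moved in both directions. Homeostatic markers rose in 7 and fell in 9 of 23 (69.6% called, against 63.1% of all genes). Mertk and P2ry13, receptors for dying cells and for nucleotides, fell from 33.5 ± 4.9 to 11.3 ± 0.83 FPKM (-1.48) and from 12.8 ± 0.80 to 3.62 ± 0.21 FPKM (-1.58). Trem2, a lipid-sensing receptor, was at 16.7, 17.6 and 21.2 FPKM in LPS and at 4.37 to 5.62 FPKM (median 4.71) in LPS+CLA (-1.74 ± 0.11), while the gene of its signalling partner Tyrobp rose from 642 ± 48.8 to 841 ± 32.0 FPKM (0.39). Fcrls, a microglial Fc receptor-like gene, was at 44.2, 39.5 and 36 FPKM and at 77.9 to 178 FPKM (median 171) (1.90 ± 0.19), with replicate 2 at 77.9 FPKM lowest in its group and above every LPS library. Disease-associated markers rose in 11 and fell in 12 of 24, with Lpl, lipoprotein lipase, from 51.9 ± 9.0 to 165 ± 31.6 FPKM (1.64) and Gpnmb from 335 ± 15.4 to 77.5 ± 12.9 FPKM (-2.12).

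Engulfment genes moved in both directions. Of 14 bridging and machinery genes 5 rose and 5 fell, and of 23 receptor genes 7 rose and 10 fell. The shares called were 71.4% and 73.9%, against 63.1% of all genes. Axl, like Mertk a TAM receptor, fell from 71.2 ± 1.8 to 30.3 ± 2.7 FPKM (-1.21). Both ligands of these receptors rose, Gas6 from 17.3 ± 1.3 to 40.2 ± 8.1 FPKM (1.14) and Pros1 from 3.33 ± 0.10 to 11.5 ± 1.1 FPKM (1.53). The complement gene C1qa, at 792 ± 67.5 FPKM in LPS and 852 ± 82.3 FPKM in LPS+CLA, was not called with all libraries (adjusted p = 0.26) and was called without replicate 2 (0.16, adjusted p = 0.032).

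Of 20 secreted factors linked to remyelination 5 rose and 9 fell (70% called, against 63.1% of all genes). Mif, a macrophage cytokine, rose from 119.5 ± 19.4 to 383 ± 13.9 FPKM (1.68) and Spp1, osteopontin, from 549 ± 139 to 1030 ± 255 FPKM (0.91), while Grn, progranulin, fell from 1370 ± 96.4 to 925 ± 13.9 FPKM (-0.56) and Lgals3 from 386 ± 85.1 to 225 ± 15.4 FPKM (-0.75). Matrix metalloproteinases and their inhibitors rose in 9 and fell in 3 of 16, and in 6 and 5 after median-of-ratios scaling. Mmp9, a gelatinase, was at 149, 147 and 169 FPKM in LPS and at 589.7 to 614 FPKM (median 610) in LPS+CLA (1.96 ± 0.25), and Mmp13, a collagenase, at 357, 379.5 and 423 FPKM and at 896 to 1852 FPKM (median 927) (1.42 ± 0.25). In Mmp13 replicate 2 was the highest, and the other 5 lay at 896 to 942 FPKM. Of 27 cell cycle genes 12 rose and 4 fell (59.3% called, against 63.1% of all genes). Ccnd2 and Mki67 were among the falls (-1.16 and -0.49) and Tyms among the rises (1.15). Mki67 was low, at 1.65, 1.58 and 0.74 FPKM in LPS and 0.54 to 0.73 FPKM in LPS+CLA. Its LPS replicate 3, at 0.74 FPKM, lay next to the LPS+CLA range. Of 14 immediate early genes 4 rose and 6 fell (71.4% called), with Fos from 12.2 ± 1.2 to 22.1 ± 0.93 FPKM (0.81) and Atf3 from 168 ± 30.0 to 93.3 ± 1.1 FPKM (-0.82).

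Markers of other cells were low but moved between the groups. Of 10 neuron markers 9 fell and 0 rose, and 7 fell without LPS+CLA replicate 2, and they summed to 16.39 to 20.94 FPKM in LPS, 7.81 to 9.58 FPKM in 5 LPS+CLA libraries and 1.62 FPKM in replicate 2. Tubb3 and Dcx went from 4.51 ± 0.27 to 1.89 ± 0.72 FPKM and from 3.13 ± 0.98 to 0.982 ± 0.45 FPKM (-0.98 and -1.07). Astrocyte markers summed to 33.9 to 36.36 FPKM in LPS, 67.37 to 73.05 FPKM in those 5 and 39.31 FPKM in replicate 2. Of 15 tested astrocyte markers 3 rose and 4 fell (median minus all genes -0.366), so the sum and the counts differ in direction. Among the 3 were Glul, which makes glutamine, from 21.4 ± 4.4 to 48.7 ± 10.4 FPKM (1.13), and Gja1, a gap junction gene, from 3.37 ± 0.28 to 9.1 ± 0.79 FPKM (1.21). Gfap, the defining filament of astrocytes, was at 2.05 ± 0.76 FPKM in LPS and 1.01 ± 0.34 FPKM in LPS+CLA and was not called, and the water channel gene Aqp4 fell (-0.37). Of 17 astrocyte markers with values, 8 stayed under 1 FPKM in all 9 libraries and Ntsr2 was listed at 0. Fibroblast, mural and endothelial markers summed to 20.96 to 24.56 FPKM in LPS and 47.73 to 52.26 FPKM in the 5, against 33.37 FPKM in replicate 2, and rose in 5 and fell in 0 of 13. Igfbp7, 1 of these rises, was at 14.1 FPKM in replicate 2 and 11.4 to 14.4 FPKM in the other 5 libraries. The collagen genes Col1a2 and Col3a1 were also called higher, but were at 0.32 and 0.09 FPKM in replicate 2. In the other 5 libraries they were at 2.6 to 3.71 and 3.55 to 4.57 FPKM. Border macrophage and monocyte markers summed to 1210 to 1237 FPKM in LPS and 848.4 to 1010 FPKM in LPS+CLA. Of 9 tested, 2 rose and 4 fell. Ms4a7 fell from 696 ± 72.1 to 403 ± 48.4 FPKM (-0.79), while Pf4 (1.29) and Cd209f (1.63) rose, the second from low values. Oligodendrocyte lineage markers, at 61.77 to 85.61 FPKM over all 9 libraries, rose in 2 and fell in 3 of 8, and 0 of 2 tested neutrophil and lymphocyte markers were called. Shares called were 90% of neuron, 46.7% of astrocyte and 38.5% of fibroblast, mural and endothelial markers. They were 66.7% of border macrophage and 62.5% of oligodendrocyte markers. Of all genes 63.1% were called, 40.4% as higher and 22.6% as lower. In such bulk samples fewer cells of a type and less RNA per cell cannot be told apart. The part of other cells in the gene changes above was not tested.

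The largest rises among genes with at least 5 FPKM in LPS+CLA and no overlap were led by S100a4 (4.30 ± 0.16), from 0.41, 0.7 and 1.42 FPKM in LPS to 24.1 to 40.7 FPKM (median 36.1) in LPS+CLA. S100a4 encodes a calcium-binding protein, and 47.4% of its 50-base stretches are shared with an overlapping annotated gene, so its level is uncertain. The gene lies at chr3:90603771-90606045 on GRCm38, and Slc13a3 at chr2:165405028-165473230. Igfbp7, a secreted binder of growth factors, went from 0.477 ± 0.36 to 13.1 ± 1.2 FPKM (3.28). Slc13a3, a transporter of dicarboxylates, rose from 56, 53.6 and 70.6 FPKM to 349.9 to 631 FPKM (median 617) (3.22 ± 0.19), the rise that reached the highest level. Its lowest LPS+CLA value, 349.9 FPKM, was replicate 2. Pim2, a survival kinase, went from 6.57 ± 1.0 to 65.9 ± 4.3 FPKM (3.15), Mmp3 from 1.06 ± 0.37 to 15.1 ± 4.7 FPKM (2.90), Cd55, which protects cells from complement, from 0.377 ± 0.18 to 7.79 ± 2.1 FPKM (2.64), and Ndrg1, known as a hypoxia-induced gene, from 1.15 ± 0.86 to 11.8 ± 2.6 FPKM (2.61). The other 5 were Urah (3.13), Fxyd2 (2.89), Shisa3 (2.76), Lad1 (2.65) and Has1, a hyaluronan synthase (2.60). Of the 50-base stretches of Mmp3, 8.39% are shared with Mmp10, and of Cd55 8% with Cd55b. Levels of other genes named above are uncertain for the same reason, with shares of 34.1% for Mif, 28.3% for Psme2, 26.2% for Fdps, 22.9% for Me1 and 22.7% for H2-DMb1. The exons of Acadvl, Gabarapl1, Ebi3 and Bnip3 lie to 42.9%, 28.3%, 23.4% and 22.3% opposite exons of another gene, and whether the authors' values used strand is not known.

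The largest falls were led by Ly6a (-4.41 ± 0.17), from 68.1, 77 and 103 FPKM in LPS to 1.98 to 5.4 FPKM (median 2.61) in LPS+CLA. Ly6a, the stem cell antigen Sca-1, is induced by interferon, and 19% of its 50-base stretches are shared with other Ly6 genes, its neighbours around chr15:74994877-74998031 on GRCm38. Its relative Ly6i went from 51 ± 3.8 to 4.34 ± 1.2 FPKM (-3.31). Of the 12 largest falls, 4 are in the interferon list (Iigp1, Rsad2, Ifit2 and Cmpk2), and Ifit1bl1, an Ifit relative, went from 588 ± 103 to 53.5 ± 8.8 FPKM (-3.43). Thbs1, a matrix protein that activates TGF-beta, went from 309.7 ± 36.0 to 32.1 ± 2.3 FPKM (-3.23), and Tgfbi, a matrix protein induced by TGF-beta, from 66.5 ± 6.8 to 6.94 ± 1.3 FPKM (-3.10). The others were Rgs1, which curbs chemokine receptor signals (-2.92), Calhm6 (-2.85) and Tnfsf10.

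The contrast of LPS+CLA with LPS+Baf A1 asked where CLA differed from the proton pump inhibitor. It called 6016 of 11070 genes, 54.3%, with 3914 higher (35.4%) and 2102 lower (19.0%) in LPS+CLA, and 6163 genes without LPS+CLA replicate 2. The share of rises was 65.1%, 50.6% after median-of-ratios scaling and 54.5% after quantile normalization. Both treated groups are also set against the same LPS libraries, so their differences from LPS are given side by side and not as support for each other. Changes of 2-fold or more were 99 rises and 185 falls, against 330 and 357 between LPS+CLA and LPS.

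For several genes that rose against LPS the treated groups lay close to each other. Glycolysis and hypoxia genes were called higher in LPS+CLA than in LPS+Baf A1 in 13 of 35 and lower in 2, with a median 0.0618 above that of all genes. Ldha was at 931 ± 20.0 FPKM in LPS+Baf A1 against 1117 ± 55.9 FPKM in LPS+CLA (0.26 ± 0.065, adjusted p = 0.0016). Hspa5 was at 563 ± 15.2 FPKM against 564 ± 51.9 FPKM (-0.0029 ± 0.051) and was not called (adjusted p = 0.97). Pdia4 (0.12 ± 0.078) and Atg5 (-0.0056 ± 0.040) were not called either. Other ER folding genes did differ: of 18, 7 were called higher and 4 lower with CLA (median minus all genes 0.013). Of 12 cytosolic chaperone genes 9 were called higher and 1 lower (0.176). Of all genes 54.3% were called in this contrast.

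Other groups separated the treatments. Interferon response genes were lower with CLA than with Baf A1 in 44 of 57, all 11 inducible GTPases among these 44, and higher in 4 (median minus all genes -0.397). Rsad2 was at 389.6, 359.9, 459.5, 411 and 408 FPKM in the 5 LPS+Baf A1 libraries, between LPS and LPS+CLA with no overlap to either (-1.63 ± 0.079 for CLA minus Baf A1, adjusted p = 1.6e-13). Oas2 did not follow, at 28.6 ± 0.68 FPKM with Baf A1 and 31 ± 1.4 FPKM with CLA (0.11). Pro-inflammatory genes were lower with CLA in 17 and higher in 2 of 22. Tnf was at 239 ± 5.5 FPKM with Baf A1 (-0.65 ± 0.12), Nos2 at 226 ± 11.6 FPKM (-1.23 ± 0.13) and Cd86 at 27.3 ± 0.70 FPKM (-1.60 ± 0.063). Il1a was at 776 ± 111 FPKM with Baf A1 against 195 ± 4.9 FPKM with CLA (-1.97 ± 0.18). Il1b was at 3551 ± 338 FPKM with Baf A1, inside the range of the LPS+CLA libraries that replicate 2 set (-0.36 ± 0.12 for CLA minus Baf A1, adjusted p = 0.019). NRF2 targets were lower with CLA in 18 and higher in 4 of 32.

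Genes higher with CLA than with Baf A1 by the most were Slc13a3, Cd55, Il10, Shisa3, Ndrg1 and Flvcr2, a haem and choline transporter. Slc13a3 was at 37.6, 36.2, 41.6, 39.3 and 36.3 FPKM with Baf A1, below the LPS libraries, and the difference was 3.85 ± 0.16. Il10 was at 3.75, 2.25, 3.59, 3.67 and 3.95 FPKM (2.49 ± 0.13), also below LPS. Flvcr2 was at 0.548 ± 0.079 FPKM with Baf A1 and 5.77 ± 0.58 FPKM with CLA (2.13 ± 0.11). Lower with CLA by the most were Tgfbi (-2.94), Slpi (-2.81), Susd2 (-2.78), Fabp3 (-2.71), H2-M2 (-2.70) and Ly6i (-2.62). Tgfbi was at 59.3 ± 0.67 FPKM with Baf A1 and 66.5 ± 6.8 FPKM in LPS. Susd2 was at 0.807 ± 0.24 FPKM in LPS, 0.94 ± 0.094 FPKM in LPS+CLA and 12.4 ± 1.2 FPKM in LPS+Baf A1.

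**Figure D4:**
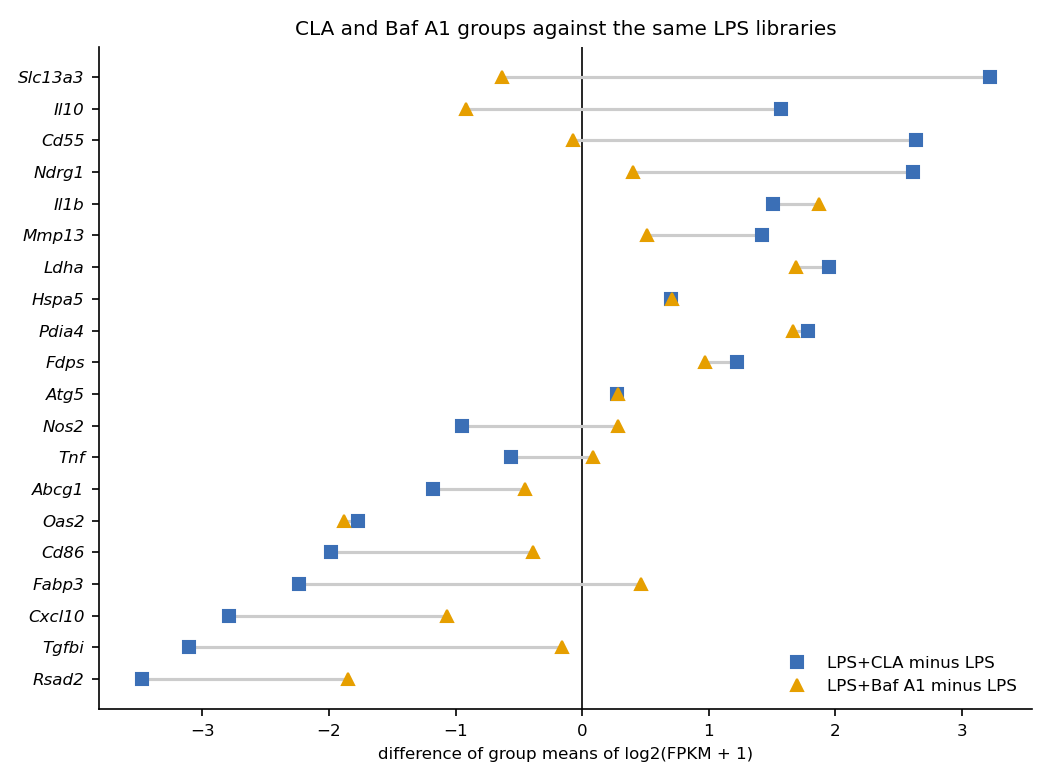
Log2 difference of each treated group from LPS for 20 genes named in the text, LPS+CLA (squares) and LPS+Baf A1 (triangles), computed from group means of log2(FPKM + 1). The symbols lie close together for Ldha, Hspa5 and Atg5 and far apart for Slc13a3, Il10, Cd86 and Tgfbi.

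LPS+CLA replicate 2 differed from its group across many genes. Of all genes tested, 66.4% lay outside the range of the other 5 libraries there, against 24% to 28% for each other library. It was at least 2-fold below their mean in 68 genes and above in 13. Relative to LPS its interferon list median minus that of all genes was -0.856, against -1.25 to -1.13 in the other 5. For pro-inflammatory genes this was 0.143 in replicate 2 and -0.631 to -0.495 in the others. For glycolysis and hypoxia genes it was 1.15 in replicate 2 and 0.832 to 0.967 in the others. For fibroblast, mural and endothelial markers it was -0.191 against 0.211 to 0.301, and for neuron markers -1.08 against -0.742 to -0.537.

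The genes of replicate 2 farthest above the mean of the other LPS+CLA libraries were Zswim9, S100a8, Il19, Mettl17, Slc7a2, an arginine transporter, and Slpi, an inhibitor of serine proteases. Mettl17 was at 11.5 FPKM there and not above every other library, since replicate 6 was at 11.57 FPKM. S100a8, a neutrophil alarmin, was at 19.9 FPKM there, against 4.02 to 6.25 FPKM in the other 5 and 5.61, 7.7 and 12.4 FPKM in LPS. The neutrophil and lymphocyte markers summed to 21.67 FPKM there, 6.07 to 7.2 FPKM in the other 5 and 7.33 to 14.24 FPKM in LPS. S100a8 is itself one of these markers and made up most of the sum in replicate 2, so the sum adds little to its own value. Of the 5 such markers with values, 3 stayed under 1 FPKM in all 9 libraries. Il19, a cytokine of the interleukin-10 family, was at 11.4 FPKM against 2.68 to 3.51 FPKM. Those farthest below that mean were Timp1, Sparc, Nnat, Mmp3, Uchl1 and Cd200r1. Timp1, a metalloproteinase inhibitor made by many stromal cells, was at 4.15 FPKM against 13.9 to 17.6 FPKM, and Sparc at 0.98 FPKM against 4.81 to 5.65 FPKM. These genes were chosen for their distance, so no test applies to them. What set this library apart was not tested.

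**Figure D5:**
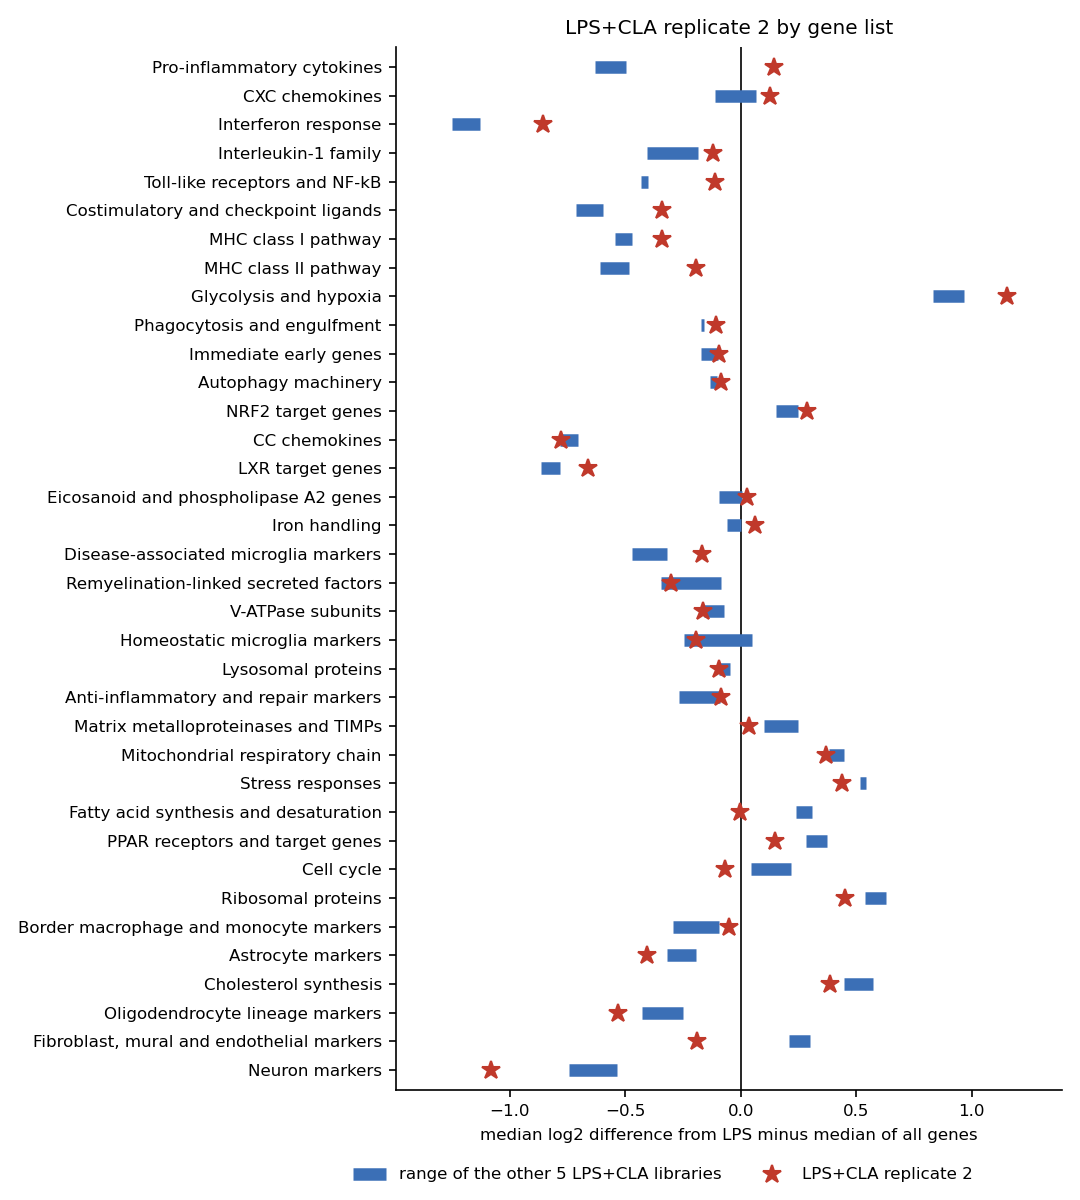
Median log2 difference from LPS of each gene list minus that of all genes, for LPS+CLA replicate 2 (star) and as the range over the other 5 LPS+CLA libraries (bar). The star lies above the bar for pro-inflammatory cytokine, interferon response and glycolysis genes and below it for fibroblast, neuron and ribosomal protein genes.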

How the data were processed

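RNA was sequenced from 22 libraries of cultured mouse microglia in 5 groups. The values are FPKM, per the file headers, in 1 deposited table with a column for each library. Per the submitters' processing notes the tools included CASAVA 1.7, fastp 0.18.0, Bowtie2 2.2.8, HISAT2 and StringTie 1.3.1. The sources used here give neither their settings nor the annotation and genome build. No read counts are held, so depth is unknown and no count model was used.

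Values were analysed here as log2(deposited FPKM + 1). A gene was tested if 3 or more of the 22 libraries reached 1 FPKM. A model with 1 mean for each of the 5 groups was fitted to the 22 libraries (limma 3.58.1, R 4.3.3, mean-variance trend, robust empirical Bayes), p-values were Benjamini-Hochberg adjusted over all tested genes, and genes under 0.05 were called. The fit was tested on simulated data. A symbol listed on 2 lines was taken from its first line. Columns were matched to samples by title.

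The genes, lists and contrasts were chosen with earlier results of these data known, and list counts are descriptions. Genes named are 8 fixed ones (Arg1, Nos2, Il1b, Tnf, Fads2, Fads1, Pparg and Atg5); the 12 called rises and the 12 called falls of greatest size whose higher group averaged 5 FPKM or more and whose groups did not overlap; per list up to 4 called in each direction with the smallest adjusted p and up to 2 uncalled with the highest level; the 6 largest differences in each direction from LPS+Baf A1; and the 6 genes of replicate 2 farthest above and below the mean of the other LPS+CLA libraries. Not all of these are printed. Ifit3, Isg15, Ifit1, Hspa5 and Hsp90b1 were added for their promoter sequences, chosen by LPS level among list members with a match. Promoter windows are RefSeq's on GRCm38.p6. Gene positions and shared 50-base stretches come from GENCODE M21 on GRCm38, whose match to the authors' annotation is unknown.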

Additional observations from a re-analysis of the deposited data

Results flagged for a closer look

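A library was marked when its gap to the nearest other library of its group, over the range of the group, passed the critical value of Dixon's test. Of 205 groups of 5 or 6 libraries tested, 93 had such a library, where chance marks about 1 in 20. It was LPS+CLA replicate 2 in 87 of them, the highest in 45 and the lowest in 42. Genes chosen for the distance of that library are among them. The level in replicate 2 is given first and the range of the other 5 in brackets, all in FPKM.

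Among interferon and antigen presentation genes, that library was above the other 5 for Rsad2 at 154 (122 to 128), Ifit1 at 217 (173 to 179.7), Ifit2 at 118 (94.1 to 101), Ifitm3 at 2308 (1897 to 2039) and Ifit1bl1 at 70.7 (46.6 to 52.8). Others were Ly6a at 5.4 (1.98 to 2.85), Cxcl10 at 348 (250.2 to 274), Cxcl9 at 22.5 (12.6 to 13.8), Cd274 at 141 (129 to 133) and Cd40 at 44.8 (35.9 to 37.4). To these add Tap1 at 119 (110.0 to 113), H2-D1 at 2580.3 (2352 to 2417) and Cd74 at 30.7 (16 to 18). Cytokine, chemokine and effector genes in which it was the highest were Nos2 at 164 (83.4 to 87.9), Tnf at 246 (136 to 144), Il1b at 4229.7 (2412 to 2605), Lcn2 at 1849 (926 to 991) and Ptgs2 at 216 (107 to 113). Others were Il1rn at 1023 (752 to 789), Il18bp at 29.8 (19.9 to 22.6), Casp4 at 70.8 (58.6 to 62.5), Nlrp3 at 68.8 (38.5 to 44.7) and Cxcl2 at 232 (137 to 158). To these add Ccl5 at 7336 (5941 to 6445), Ccrl2 at 32.9 (20.0 to 22.8), Il19 at 11.4 (2.68 to 3.51), S100a8 at 19.9 (4.02 to 6.25) and Slpi at 26 (8.65 to 11.7). Next came Spp1 at 1549 (899 to 958). In LPS sensing and NF-kB feedback it was the highest for Cd14 at 972 (731 to 762), Tnip3 at 136 (116 to 123), Nfkbie at 18.6 (11.6 to 13.4), Tnfaip3 at 59.4 (31.4 to 34.6) and Nfkbia at 279 (212 to 218). It was also the highest for the genes Pgam1 at 601 (524 to 553), Gsr at 174 (136 to 142), Keap1 at 27.5 (24.6 to 25), Acsl1 at 91.8 (69.1 to 71) and Pla2g7 at 171 (144 to 153). Others were Axl at 35.6 (28.5 to 30.5), Mmp13 at 1852 (896 to 942), Urah at 35.3 (21.1 to 23.2), Has1 at 12.8 (6.12 to 6.93) and Zswim9 at 12.4 (1.46 to 1.75). To these add Slc7a2 at 155 (53.8 to 63.4).

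Interleukin, chemokine and repair genes in which it was the lowest were Arg1 at 16.8 (26 to 27.7), Il10 at 18.1 (24.2 to 25.8), Il4ra at 103 (134 to 139), Cd36 at 209 (368 to 409) and Mrc1 at 2.15 (5.03 to 5.9). Others were Ccl6 at 63.2 (128 to 141), Ccl9 at 236 (285 to 310.1) and Pycard at 21.9 (29 to 32.4). In lipid genes it was the lowest for Pparg at 0.58 (2.77 to 3.24), Fads1 at 4.32 (7.77 to 8.44), Fdps at 12.7 (17.3 to 19.2), Npc1 at 26.8 (33.4 to 35) and Lpl at 101 (173 to 185). Gla followed at 21.9 (28.1 to 30.7). Ribosome, ER folding and oxidant defence genes in which it was the lowest were Rpsa at 294 (355 to 365), Rps24 at 716 (889 to 934), Pdia4 at 81.8 (119.9 to 127), Calr at 889.5 (1073 to 1132) and Hsp90b1 at 359 (409 to 433). Others were Tkt at 71.8 (83.5 to 87) and Cat at 39.6 (43.7 to 45). Markers of microglia and of other cells were lowest there for Fcrls at 77.9 (171 to 178), Gpnmb at 51.2 (81.9 to 83.6), Gas6 at 23.9 (41 to 45.4), C1qa at 694 (853 to 937) and Tlr13 at 8.58 (13.3 to 15.5). Others were Ms4a7 at 305 (416 to 431), Cd200r1 at 7.2 (18.4 to 19.8), Tubb3 at 0.48 (1.83 to 2.49), Dcx at 0.12 (0.99 to 1.34) and Uchl1 at 7.84 (20.0 to 22.2). To these add Nnat at 1.21 (4.77 to 5.54), Glul at 28 (50.6 to 56.9), Sparc at 0.98 (4.81 to 5.65) and Timp1 at 4.15 (13.9 to 17.6). The remaining genes in which it was the lowest were Sqstm1 at 244 (286 to 294), Slc13a3 at 349.9 (615 to 631), Pim2 at 57.2 (66.5 to 68.8), Mmp3 at 5.63 (15.5 to 18.4) and Cd55 at 3.61 (7.91 to 9.26). Others were Ndrg1 at 6.49 (12.1 to 13.3) and Tgfbi at 4.47 (6.69 to 7.95).

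Other libraries stood apart for single genes. Il10 was at 2.25 FPKM in LPS+Baf A1 replicate 2, below the others of its group at 3.59 to 3.95 FPKM. Cd86 was at 7.31 FPKM in LPS+CLA replicate 4, below the others of its group at 8.31 to 8.8 FPKM. Psme2 was at 470.2 FPKM in LPS+CLA replicate 1, above the others of its group at 454 to 456 FPKM. Lss was at 3.45 FPKM in LPS+CLA replicate 1, below the others of its group at 4.11 to 4.34 FPKM. Acot7 was at 84.1 FPKM in LPS+CLA replicate 6, above the others of its group at 77.8 to 80.1 FPKM. Tcirg1 was at 91.6 FPKM in LPS+CLA replicate 3, below the others of its group at 97.3 to 97.9 FPKM.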

How the results depend on the processing

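With each of the 14 libraries of LPS, LPS+CLA and LPS+Baf A1 left out in turn, the number of genes called between LPS+CLA and LPS ranged from 6371 without LPS replicate 1 to 7130 without LPS+CLA replicate 2, with 4181 to 4703 rises and 2093 to 2698 falls. Between LPS+CLA and LPS+Baf A1 it ranged from 5596 to 6299. With array weights 7832 and 7300 genes were called, without a filter on low values 7236 and 6111, with a filter of 5 FPKM 5767 and 4996, and with only the 2 groups of each contrast 6154 and 6130. A pseudocount of 0.1 in place of 1 raised the changes of 2-fold or more against LPS to 597 rises and 661 falls, and against LPS+Baf A1 to 202 rises and 394 falls, since it widens the differences of low genes. Of the genes named, the difference of H2-D1 changed sign to -0.0523 after median-of-ratios scaling, -0.0462 after quantile normalization and -0.0338 without both LPS replicate 3 and LPS+CLA replicate 2 after median-of-ratios scaling. The last setting, chosen after seeing the data, turned Nfkbia to -0.149, and quantile normalization turned Ifitm3 to -0.134. The cause was not tested.

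Replicate numbers are shared between groups in the titles. Deviations of LPS+CLA libraries and same-numbered libraries correlated at -0.113 to -0.000199 with LPS and at -0.094 to 0.0291 with LPS+Baf A1. Differently numbered LPS+CLA and LPS libraries correlated at -0.217 to 0.248. These values show no sign of pairing by number, but so few pairs cannot exclude it, and the labels do not say. With the replicate block 6449 and 5608 genes were called. Without read counts the precision of low values is unknown, and 3 LPS libraries, of which replicate 3 lay apart, set the reference for every difference.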
